A study of Mus musculus with 3 samples.

Results

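The genes described here are 6 transcription factors of the Myb and Myc networks, Myb, Mybl2, Myc, Mycn, Mycl and Max, taken by symbol from the 27998 genes of the count tables. All 6 symbols were listed once, and all 6 genes had UMIs (unique molecular identifiers, tags that mark single captured transcripts) in each library. They were followed across 3 cell populations taken by flow sorting out of C57BL/6J mouse bone marrow, and across cell cycle states within them. The earliest population, lymphoid-primed multipotent progenitors (LMPP), carried cKit, Sca1 and Flt3 and lacked IL7Ra and B220. Common lymphoid progenitors (CLP) carried cKit, Sca1 and IL7Ra, with Flt3 either present or absent, and lacked B220. Pro-B cells carried cKit, IL7Ra and B220, and lacked Sca1 and Flt3. The labels give no engineered allele or treatment for these populations and no age, sex or number of mice, so it is not known whether several mice were pooled.

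Myb is the founding member of a family of DNA-binding factors that blood progenitors need, and it is known to act in the step to pro-B cells. Its relative Mybl2, also called B-Myb, is a general factor of dividing cells that works with the MuvB complex and Foxm1 to switch on genes of mitosis. Myc, Mycn and Mycl are 3 related factors that drive growth, ribosome production and entry into division. Each binds DNA as a pair with Max, and Max in turn pairs with the Mxd proteins, Mnt and Mga, which repress many of the same sites.

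Per library there were 579 LMPP, 948 CLP and 1106 pro-B cells after filtering, of 599, 979 and 1123 deposited barcodes and about 3000 cells loaded per the labels. They held 4014657, 5967352 and 7367156 UMIs, with medians of 6789, 6258.5 and 5687.5 per cell. The libraries shared 1 to 3 barcode sequences in each pair. The labels held up against marker genes. The summed level of 11 early B genes was 55.0, 988 and 17224 CPM (counts per 1000000 UMIs of the group) for LMPP, CLP and pro-B, and that of 8 stem and multipotent genes was 1581, 350 and 14.0 CPM. The plasmacytoid dendritic list of 9 genes summed to 657, 2386 and 543 CPM. It includes Ly6d, which is also in the early lymphoid list, so the sum alone does not show cells of another lineage. Clusters that resembled other lineages are described below. Each population had 1 library, without replicates, so no test was possible. Intervals are exact 95% intervals and cover counting error only, and a difference between populations cannot be told apart from one between droplet runs. Levels were compared within a gene, not between genes. A gene was counted as different when its CPM differed 2-fold or more and reached 20 CPM in the higher group.

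All 6 are protein-coding genes. In the GENCODE M21 annotation of GRCm38, Myb lies at chr10:21124935-21160984 on the minus strand, Mybl2 at chr2:163054687-163084688 on the plus strand and Myc at chr15:61985391-61990374 on the plus strand. Mycn lies at chr12:12936093-12941914 and Max at chr12:76937269-76962201, both on the minus strand, and Mycl at chr4:122995652-123002485 on the plus strand. An antisense gene, Gm26577, overlaps Myb and was counted separately with 2, 3 and 3 UMIs in LMPP, CLP and pro-B.

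RefSeq promoters (GRCm38.p6) were found for 5 of the 6 members, all but Myc. The stretches from 100 bases before to 10 bases after the start are shown because 3 members carry a known type of site that begins within 13 bases of the start. These are Myb, Mybl2, the member that differed most between cycle classes in pro-B, and Max, the shared partner. Capitals mark 2 motifs searched on both strands. These are GGCGGGA (the core of an E2F site, bound by the E2F transcription factors) and CACGTG (the E-box bound by Myc and Max). In the order given the windows are chr10:21160975-21161084 (minus strand), chr2:163054535-163054644 (plus), chr12:12941827-12941936 (minus), chr4:122995831-122995940 (plus) and chr12:76962239-76962348 (minus).
Myb: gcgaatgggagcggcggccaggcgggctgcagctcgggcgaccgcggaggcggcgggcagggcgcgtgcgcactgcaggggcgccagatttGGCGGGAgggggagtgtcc
Mybl2: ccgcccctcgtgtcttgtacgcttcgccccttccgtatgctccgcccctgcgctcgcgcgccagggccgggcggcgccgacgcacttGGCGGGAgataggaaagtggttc
Mycn: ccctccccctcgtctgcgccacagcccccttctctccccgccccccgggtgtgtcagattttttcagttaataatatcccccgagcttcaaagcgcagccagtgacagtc
Mycl: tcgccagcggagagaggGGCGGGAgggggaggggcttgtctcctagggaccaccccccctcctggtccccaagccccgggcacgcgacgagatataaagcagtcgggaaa
Max: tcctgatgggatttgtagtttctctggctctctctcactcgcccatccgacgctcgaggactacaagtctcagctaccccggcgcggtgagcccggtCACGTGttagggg
The E2F core began 9 bases before the start of Myb, 13 before that of Mybl2 and 83 before that of Mycl. It was absent from the windows of Mycn and Max. Of all 32851 RefSeq promoters, in windows of 300 bases (250 before and 50 after the start), 11.3% held this motif. The E-box of Max spanned its start, beginning 3 bases before it. CACGTG was found in 7.15% of all promoters and in no other member's window. The motif TTTGAA, the CHR element through which MuvB binds genes of mitosis, stood in 17.9% of all promoters and in 12 of 18 promoters of the G2/M list used below. Among the members only Mycn held it, 14 bases before its start on the other strand. The Myb core AACNG stood in 80.3% of all promoters and in all 5 windows of 300 bases found for members.

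Across the 3 populations the members took different paths. Myb was 1.96-fold higher in CLP and 1.82-fold higher in pro-B than in LMPP. Mybl2 was high in pro-B, Max differed by at most 1.27-fold, and the 3 Myc genes were all low in pro-B. Of the 5 members that reached 20 CPM in CLP or LMPP, 1 was at least 2-fold higher in CLP (Mycl) and 1 at least 2-fold lower (Mycn), against a background in which 4.11% of all 5454 genes tested were higher and 3.03% lower. All 6 reached it in pro-B or CLP. Of these, 1 was higher in pro-B (Mybl2) and 3 were lower (Myc, Mycn and Mycl), against 15.7% and 11.6% of 5739 genes. In pro-B over LMPP 5 members were tested, with 1 higher (Mybl2) and 2 lower (Myc and Mycn), against 16.3% and 12.8% of 5794 genes.

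**Figure D1:**
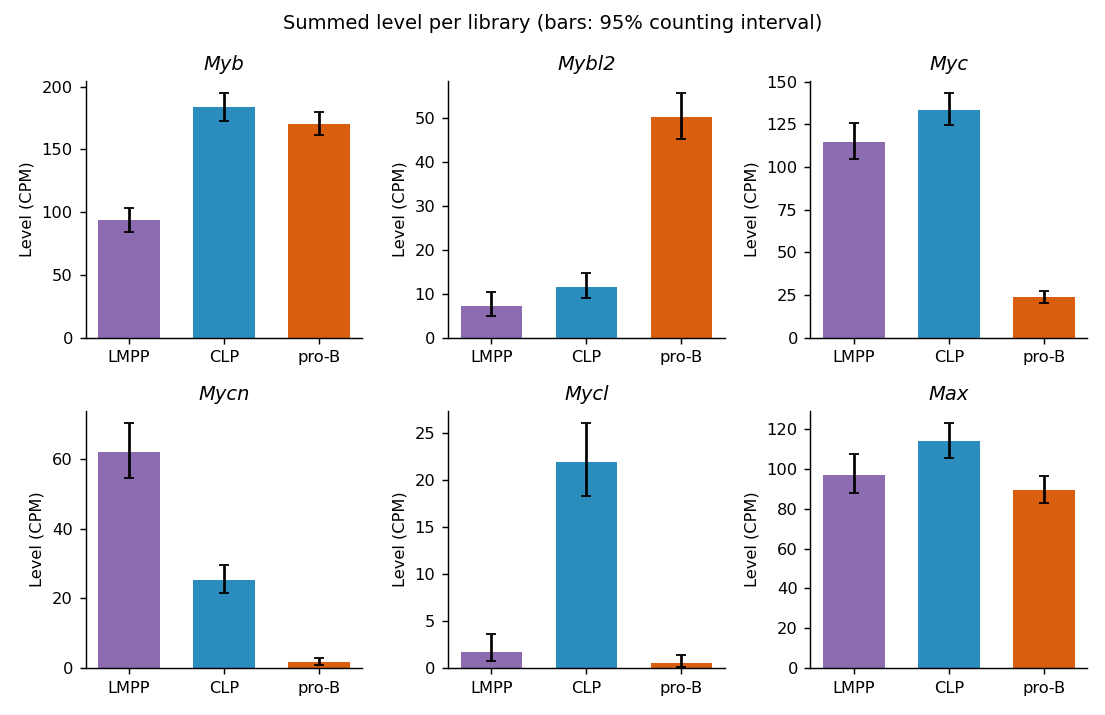
Summed level (CPM, linear axis from 0) of each member in the LMPP, CLP and pro-B libraries, with 95% counting intervals. Myb is higher in CLP (183 CPM) and pro-B (170 CPM) than in LMPP (93.4 CPM), Mybl2 is high in pro-B, and Myc, Mycn and Mycl are low there.

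Myb measured 93.4 CPM in LMPP, 183 CPM in CLP and 170 CPM in pro-B. Its log2 ratio was 0.97 (0.80 to 1.15) for CLP over LMPP, just under the 2-fold line, and −0.11 (−0.23 to 0.01) for pro-B over CLP. After each cell was thinned to 2000 UMIs, the share of cells with a Myb UMI was 16.1% (13.1 to 19.3), 30.1% (27.1 to 33.2) and 30.8% (28.1 to 33.7). Without thinning, 246 of 579 LMPP, 580 of 948 CLP and 683 of 1106 pro-B cells had one. The step lay between LMPP and CLP on each of these scales.

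Mybl2 measured 7.22 CPM in LMPP, 11.6 CPM in CLP and 50.2 CPM in pro-B, with log2 ratios of 0.68 (0.03 to 1.36) for CLP over LMPP and 2.12 (1.74 to 2.51) for pro-B over CLP. It was seen in 1.57%, 1.65% and 7.76% of thinned cells, and in 24, 51 and 256 cells without thinning. The intervals of LMPP and CLP overlapped, and that of pro-B lay above both.

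Myc measured 115 CPM in LMPP, 134 CPM in CLP and 23.6 CPM in pro-B. The log2 ratio was 0.22 (0.05 to 0.39) for CLP over LMPP and −2.50 (−2.74 to −2.26) for pro-B over CLP, 5.65-fold lower in pro-B. Thinned cells with a Myc UMI made up 16.4%, 23.1% and 3.46%, and 244, 436 and 99 cells had one without thinning.

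Mycn, known for its role in blood stem cells and nerve cell precursors, was highest in LMPP. It measured 62.0 CPM in LMPP, 25.3 CPM in CLP and 1.63 CPM in pro-B, with log2 ratios of −1.29 (−1.59 to −1.0) for CLP over LMPP and −3.96 (−4.94 to −3.11) for pro-B over CLP. Only 12 UMIs were counted in pro-B, each in a different cell.

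Mycl, known in mice as a Myc gene of dendritic cells, was present in CLP alone at more than a trace. It had 7, 131 and 4 UMIs, or 1.74, 22.0 and 0.543 CPM, over LMPP, CLP and pro-B. CLP was 12.6-fold higher than LMPP, and pro-B was 40.4-fold lower than CLP (log2 ratio −5.34, −7.23 to −3.95).

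Max measured 97.1, 114 and 89.6 CPM across LMPP, CLP and pro-B, and was seen in 18.5%, 20.3% and 17.0% of thinned cells. Its log2 ratio was 0.23 (0.05 to 0.41) for CLP over LMPP and −0.35 (−0.50 to −0.19) for pro-B over CLP. The share of thinned cells with no UMI of any of Myc, Mycn and Mycl was 74.9%, 69.6% and 95.8%, so Max was measured in a library where its 3 Myc partners were seldom seen. No thinned cell had UMIs of all 3, and thinned cells with UMIs of both Myc and Mycn made up 2.09% of LMPP, where the product of the single shares was 1.75%.

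Within the CLP library the cells were ordered by B lineage genes, namely Ly6d (a surface marker of B-biased CLP), Ebf1 and Pax5 (the factors that set the B cell fate). Thinned cells with none of these numbered 325, those with Ly6d but no Ebf1 204, those with Ebf1 but no Pax5 340, and those with Pax5 39. Mycn measured 47.8 CPM (39.2 to 57.7), 14.7, 10.7 and 0 CPM in these subsets in that order, the last with 0 UMIs in 39 cells and an upper limit of 16.9 CPM. The interval of the first subset lay above those of the other 3. Myb went the other way, with 156, 183, 209 and 211 CPM, and the interval of cells with Ebf1 but no Pax5 lay above that of the first subset. Myc measured 138, 101, 153 and 87.0 CPM, and Max 113, 106, 119.9 and 101 CPM. Even the Pax5 subset held more Myc (52.4 to 136 CPM) than the pro-B library (20.2 to 27.4 CPM).

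**Figure D2:**
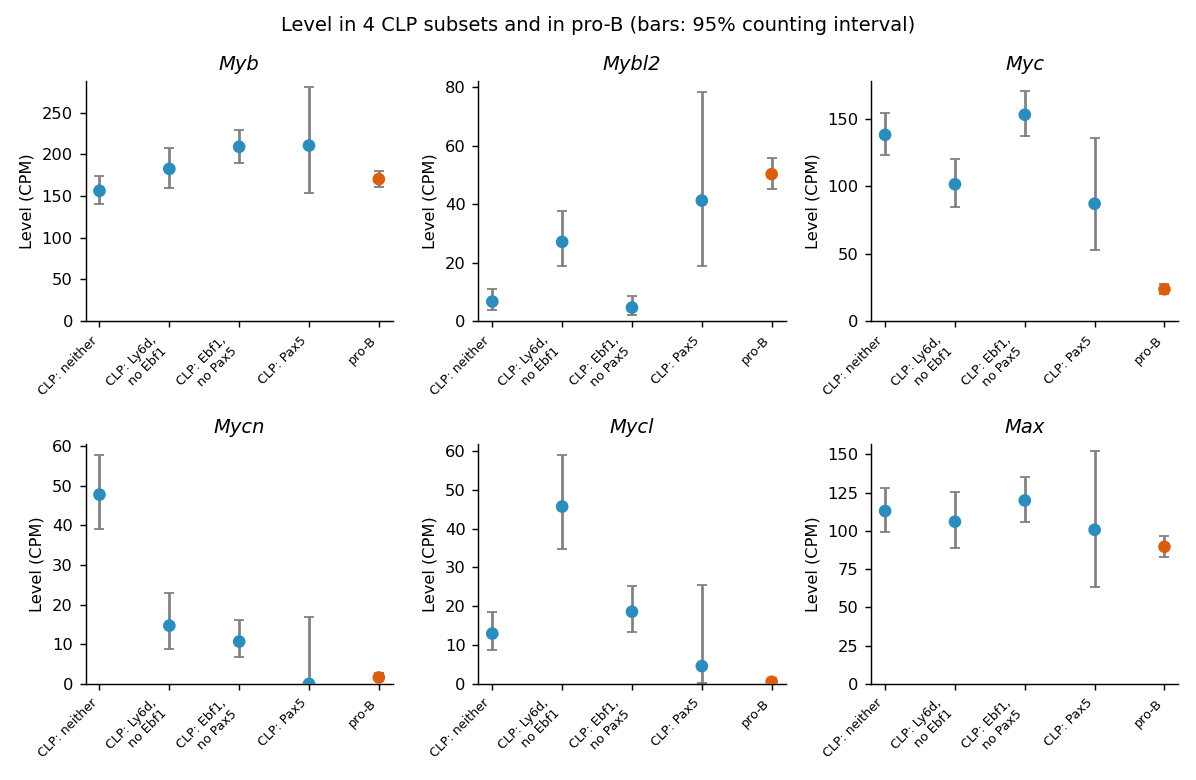
Level (CPM, linear axis from 0) of each member in the 4 CLP subsets and, at the right of each panel, in the pro-B library, with 95% counting intervals. Mycn is high in cells with neither Ly6d nor Ebf1 (47.8 CPM), Mycl stands out in cells with Ly6d but no Ebf1 (45.7 CPM), and Myc is lower in pro-B than in all 4 subsets.

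Mycl stood out in the subset with Ly6d but no Ebf1. It measured 13.0, 45.7 (34.8 to 58.9), 18.6 and 4.58 CPM in the 4 subsets. Ly6d also marks dendritic precursors, and 73 of these 204 cells fell into a plasmacytoid dendritic-like or an innate-like cluster. Without such cells Mycl measured 10.7, 16.8 (8.95 to 28.8), 17.3 and 4.58 CPM, and the second subset no longer stood apart. Myc in that subset measured 147 CPM without them, against 101 CPM with them, and Mybl2 10.3 CPM, against 27.1 CPM. Mycn kept its order, with 50.9, 22.0, 11 and 0 CPM. In the Pax5 subset no cell was left out, and Mybl2 measured 41.2 CPM there from 9 UMIs (18.8 to 78.2).

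Each library was also clustered on its own, with the members left out of the genes used. Clusters were described by their levels without a test. CLP cluster 3 (102 cells) was plasmacytoid dendritic-like, with Siglech, Irf8 and Ly6d among its leading genes. It held Mycl at 74.2 CPM (56.4 to 96.0), Mybl2 at 41.0 CPM and Myc at 44.8 CPM. The other CLP clusters had Mycl levels between 0 and 24.3 CPM. In LMPP the dendritic-like cluster 4 had 20 cells and 4 of the 7 Mycl UMIs. Outside the dendritic-like and innate-like clusters, Mycl measured 14.3 CPM in CLP and 0.779 CPM in LMPP, and the log2 ratio of CLP over LMPP was 4.20, against 3.65 with all cells. Mycl was then under the 20 CPM limit. For Mybl2 the same 119 CLP cells held 50.7% of the UMIs, and without them CLP and LMPP measured 6.66 and 6.75 CPM.

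CLP cluster 0 (272 cells, unnamed) had Mycn as its leading gene followed by Cd34, a marker of immature progenitors, although Mycn took no part in the clustering. Mycn measured 46.0 CPM there (37.4 to 55.9), against 8.40 and 4.04 CPM in the early B-like clusters 1 and 5. In LMPP it was highest in cluster 0, at 94.0 CPM, and lowest in the S phase-led cluster 2, at 34.8 CPM. CLP cluster 6 (17 cells) was NK and innate lymphoid-like, with Gata3, Rora and Id2 among its leading genes. It had 0 Myb UMIs, which allows up to 45.1 CPM by the upper limit of its interval, where the other 6 CLP clusters ranged from 157 to 225 CPM. The 17 cells had a median of 4958 UMIs.

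**Figure D3:**
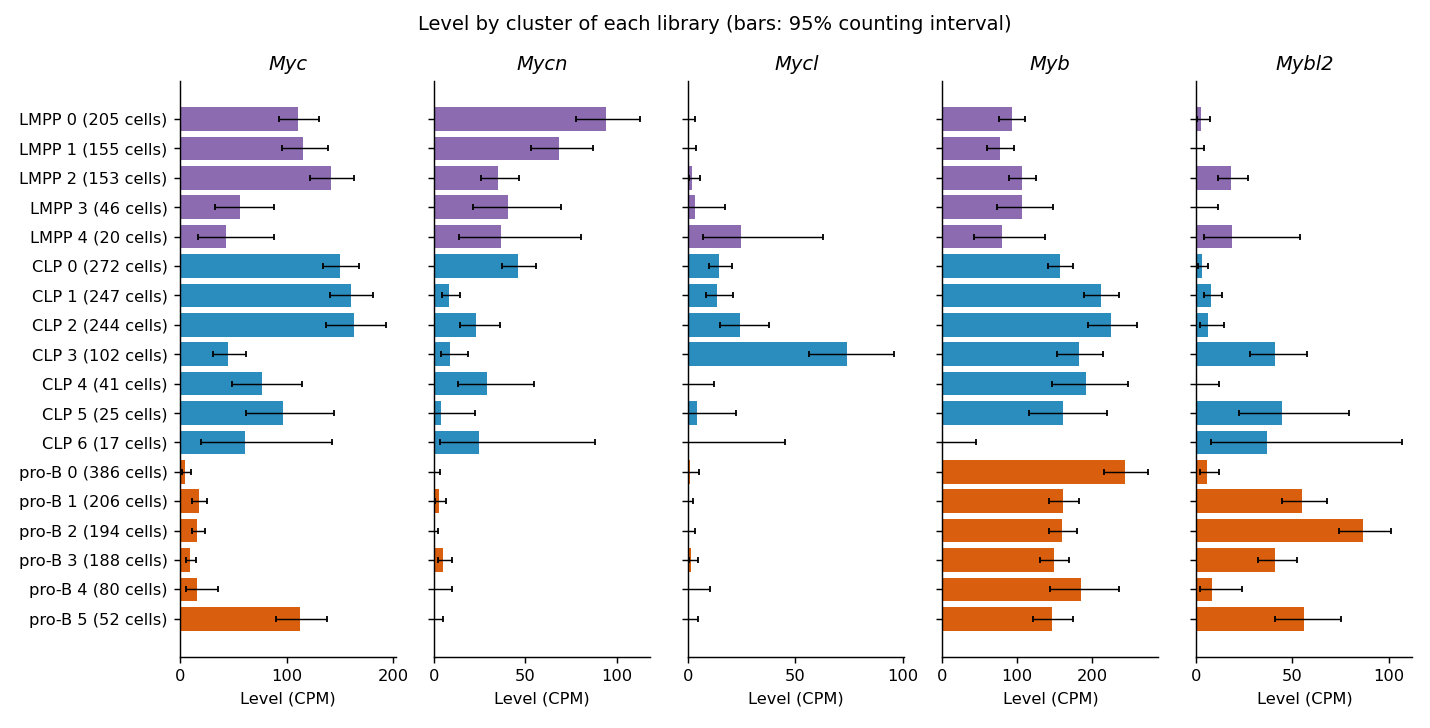
Level (CPM, linear axis from 0) of 5 members in every cluster of the 3 libraries, listed by library and cluster number with the number of cells, with 95% counting intervals. Mycl peaks in CLP cluster 3 (74.2 CPM), Myb is at 0 in CLP cluster 6, and among pro-B clusters Myc is high in cluster 5 alone (112 CPM).

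The cell cycle was read from 2 lists, 22 genes of S phase and 21 of G2/M, none of them a member. Thinned cells with 3 or more UMIs of the G2/M list were called G2/M-rich, the remaining cells with 3 or more of the S phase list S-rich, and all others cycle-low. G2/M-rich cells made up 4.01% of LMPP, 6.72% of CLP and 54.6% of pro-B, and cycle-low cells 74.9%, 69.9% and 32.0%. In pro-B this class took in 96.4% of cluster 2, with Pcna, Tyms and Rrm2 among its leading genes. It also took in 57.8% of cluster 1, with Ung, Cdc6 and Mcm2 among its leading genes. Both clusters were led by genes of S phase, so in pro-B G2/M-rich names a UMI count and not mitosis alone. In pro-B, 238 of 1070 thinned cells had 2 or 3 UMIs of the G2/M list and so lay near that limit, and 210 lay near the S phase limit. Median UMIs in the cycle-low, S-rich and G2/M-rich pro-B cells were 3060.5, 6538.5 and 8313, so the classes also differed in UMIs per cell.

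Among pro-B cells 4 members reached 20 CPM. In S-rich over cycle-low cells 2 of them, Mybl2 and Myc, were at least 2-fold higher and 0 lower, against 9.43% and 15.7% of 5671 genes. In G2/M-rich over cycle-low cells 1 was higher, Mybl2, and 0 lower, against 10.8% and 14.1% of 5720 genes. Over all genes tested, the median log2 ratio was −0.18 for S-rich and −0.14 for G2/M-rich cells.

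Mybl2 was higher in S-rich and G2/M-rich than in cycle-low cells of every library. In pro-B it measured 7.01 CPM (3.02 to 13.8) in cycle-low, 52.0 (39.1 to 67.9) in S-rich and 60.0 (53.5 to 67.1) in G2/M-rich cells. The same classes held 3.10, 27.4 and 30.0 CPM in CLP, and 2.47, 18.6 and 20.0 CPM in LMPP. The LMPP levels rested on 7, 18 and 4 UMIs. The log2 ratio of S-rich over cycle-low cells was 2.89 (1.81 to 4.18) in pro-B, 3.14 (2.19 to 4.20) in CLP and 2.92 (1.59 to 4.42) in LMPP. The 3 ratios lay within each other's intervals. Over pro-B cells binned by S phase UMIs (0, 1 to 2, 3 to 9, and 10 or more), Mybl2 measured 4.29, 19.4, 53.1 and 109.8 CPM, and the 4 intervals did not overlap. Over the same bins of G2/M UMIs it measured 9.60, 36.0, 72.8 and 47.7 CPM and was highest in the bin of 3 to 9 UMIs. The clusters of the progenitor libraries led by Ccnb2 and Cenpa, genes of mitosis, had 0 Mybl2 UMIs. These were LMPP cluster 3 (46 cells, upper limit 11.5 CPM) and CLP cluster 4 (41 cells, upper limit 11.8 CPM). Of their thinned cells 40% and 52.5% were G2/M-rich. The Mybl2 UMIs of G2/M-rich cells in these 2 libraries thus came from other clusters. LMPP cluster 2, led by genes of S phase, held 17.8 CPM (11.3 to 26.7). In pro-B the S phase-led cluster 2 held Mybl2 at 86.9 CPM (74.0 to 101). Pro-B cluster 3, with Ube2c, Ccnb1 and Cdc20 among its leading genes, held 41.1 CPM (31.8 to 52.3). In CLP 23.5% of the dendritic-like cluster 3 were G2/M-rich, and the part of these cells in the CLP class levels was not tested.

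Since G2/M-rich cells made up a larger share of pro-B, the populations were also compared within each class. Mybl2 in pro-B over CLP had a log2 ratio of 0.93 (0.32 to 1.54) among S-rich cells, 1.0 (0.26 to 1.85) among G2/M-rich cells and 1.17 (−0.32 to 2.59) among cycle-low cells, against 2.12 with all cells. In each class the ratio was less than in the whole libraries, although the interval among cycle-low cells took in 2.12. In no class was it called, since it fell just short of 2-fold in 2 classes and the cycle-low cells were under 20 CPM. The CLP classes included the dendritic-like cluster 3, of which 42.2% were S-rich and 23.5% G2/M-rich. Without dendritic-like and innate-like clusters the whole-library ratio was 2.91, and the class ratios were not computed without them. The cells with a Mybl2 UMI in pro-B were G2/M-rich in 80.7% of 83 cases, against 52.4% of the 987 cells without one.

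**Figure D4:**
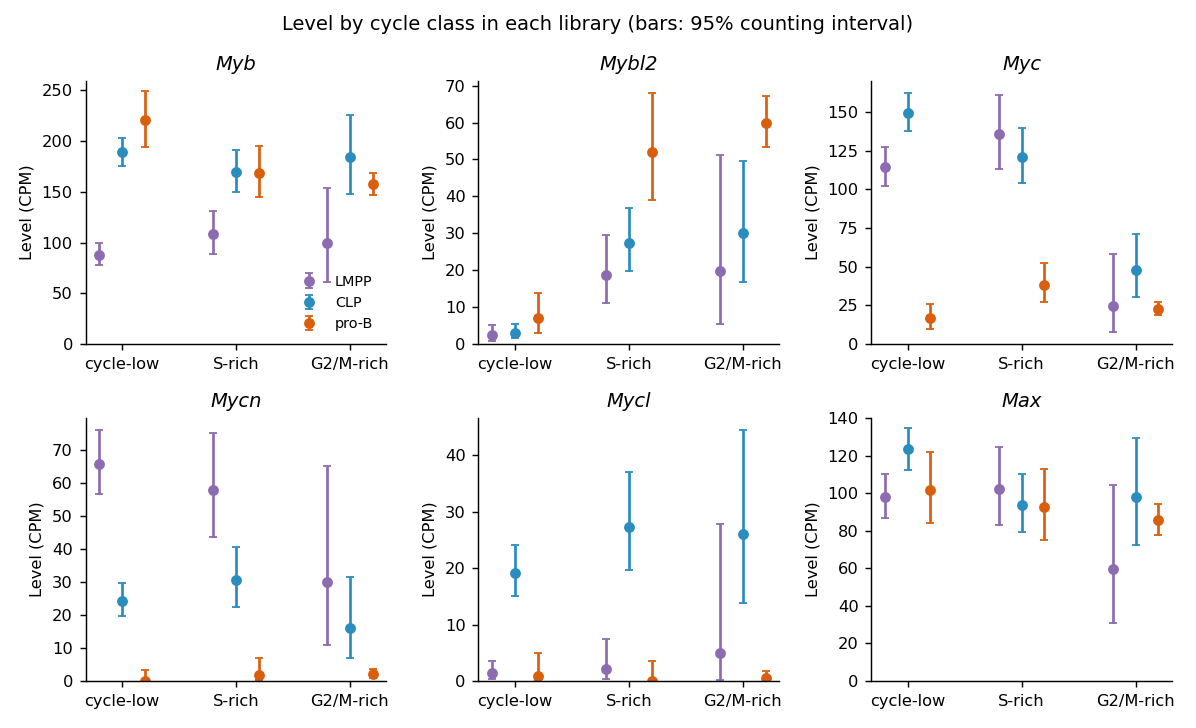
Level (CPM, linear axis from 0) of each member in cycle-low, S-rich and G2/M-rich cells of each library, with 95% counting intervals. Mybl2 is higher in both cycling classes in all 3 libraries, Myc is lower in pro-B than in LMPP and CLP in the cycle-low and S-rich classes, and Max varies little.

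Myc had another pattern over the classes. It measured 114, 136 and 24.9 CPM in cycle-low, S-rich and G2/M-rich LMPP cells, and 149, 121 and 48.0 CPM in the same classes of CLP. The log2 ratio of G2/M-rich over cycle-low cells was −2.20 (−3.83 to −0.96) in LMPP and −1.64 (−2.29 to −1.05) in CLP, so the G2/M-rich cells of both progenitor libraries held less Myc per UMI. The LMPP level rested on 5 Myc UMIs in 23 G2/M-rich cells. In CLP the dendritic-like cluster 3, with Myc at 44.8 CPM, was 23.5% G2/M-rich, and its part in the ratio was not tested. CLP cluster 4, led by genes of mitosis, held Myc at 76.8 CPM. In pro-B the 3 classes measured 16.6, 38.5 and 22.5 CPM. Each of these classes held cells of pro-B cluster 5, which had 90 of the 174 Myc UMIs of the library (below). The S-rich over cycle-low ratio of 1.21 (0.39 to 2.08) in pro-B rested on 19 Myc UMIs in 9 of 342 cycle-low cells. It was 0.17 with a class limit of 2 UMIs, 0.65 with a limit of 5, and −0.15 when cells were thinned to 3000 UMIs, so this call depended on how the classes were cut. Myc was lower in pro-B than in CLP within each class, by log2 ratios of −3.17 (−3.91 to −2.51) in cycle-low, −1.65 (−2.18 to −1.15) in S-rich and −1.09 (−1.74 to −0.40) in G2/M-rich cells.

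Myb was slightly lower in cycling than in cycle-low pro-B cells, at 221 CPM in cycle-low, 169 in S-rich and 157 in G2/M-rich cells. The log2 ratio of G2/M-rich over cycle-low cells was −0.49 (−0.69 to −0.28) in pro-B, but −0.04 (−0.37 to 0.28) in CLP and 0.18 (−0.56 to 0.84) in LMPP. Max measured 102, 92.5 and 85.6 CPM in the 3 pro-B classes, with overlapping intervals. Mycn and Mycl had 0 to 10 UMIs in each pro-B class and gave no usable ratio there.

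Much of the Myc in the pro-B library came from 1 small group of cells. Pro-B cluster 5, singled out after its values were seen, had 52 cells, or 4.70% of the library, 10.9% of its UMIs and 51.7% of its Myc UMIs (90 of 174). Myc measured 112 CPM (90.2 to 138) in this cluster, close to the 115 CPM of the LMPP library, against 12.8 CPM (10.2 to 15.8) in the other 1054 pro-B cells. The other pro-B clusters ranged from 4.43 to 17.4 CPM. Without the cluster, the log2 ratio of Myc in pro-B over CLP was −3.38 instead of −2.50. The cells held many UMIs, with a median of 15407 UMIs against 5352 in other pro-B cells. Scrublet called 0 of the 52 cells doublets, although doublets of like cells can go uncalled. Of these cells 76.9% were G2/M-rich and 5.77% cycle-low, but their level of the G2/M list was lower. The list summed to 2326 CPM in the cluster against 4771 CPM in other pro-B cells (log2 ratio −1.04, −1.10 to −0.97). Of its 20 tested genes 0 were at least 2-fold higher and 13 lower, against 6.81% and 16.2% of all genes.

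Genes that Myc is known to drive stood high in the same cluster. Of 24 ribosome biogenesis targets 22 were tested, and 19 were at least 2-fold higher and 0 lower than in other pro-B cells, with a median log2 ratio of 1.51. Of 26 targets of metabolism and growth 25 were tested, and 17 were higher and 0 lower, with a median of 1.41. Over all 5299 genes tested, 6.81% were higher and 16.2% lower, with a median of −0.21. The cluster was built from variable genes that can include these targets, so this is a description and not an independent check. Of its cells 5.77% were cycle-low, against 80.3% and 66.2% in pro-B clusters 0 and 4. Many of these targets also stood higher in S-rich than in cycle-low pro-B cells (below), and the part of this was not tested. Srm, an enzyme of polyamine synthesis, measured 368 CPM in the cluster against 49.2 CPM in other pro-B cells. Gnl3, a nucleolar protein of growing cells, measured 257 against 48.6 CPM, and Ccnd2, a D cyclin that drives entry into division, 459 against 72.5 CPM. Srm, Ccnd2 and Gnl3 led the cluster together with Mt1, a metal-binding protein, and Nrgn, and these 5 genes were named after their values were seen, like Nolc1, Odc1 and Ldha in the plot.

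Of 4 tested Mxd and Mga family partners of Max, 0 were higher and 3 lower in the cluster, against 6.81% and 16.2% of all genes. Mxd4, which pairs with Max in resting and differentiating cells, measured 12.5 CPM in the cluster against 92.5 CPM in other pro-B cells, a log2 ratio of −2.89 (−3.96 to −2.0). Mxd3, a Max partner seen in dividing cells, measured 27.4 against 99.6 CPM (−1.86, −2.54 to −1.25). Mxd4 was also higher in cycle-low than in cycling pro-B cells (below), and few cells of the cluster were cycle-low. The parts of the lower G2/M list and of the small cycle-low share in these differences were not tested. Max itself measured 88.5 against 89.7 CPM (−0.02, −0.40 to 0.34), Myb 146 against 173 CPM and Mybl2 56.1 against 49.5 CPM. Of the other B lineage genes looked at, Pax5 measured 103 against 103 CPM, while Ebf1 measured 1299 against 3844 CPM and Cd79a 789 against 1980.3 CPM. Igll1 (log2 ratio −1.14), Vpreb1 (−1.22), Rag1 (−2.69) and Il7r (−0.87) were lower too, and these 7 genes were named after their values were seen. Rag1 also differed between the pro-B classes, at 217, 49.1 and 43.0 CPM in cycle-low, S-rich and G2/M-rich cells. The part of this was not tested.

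**Figure D5:**
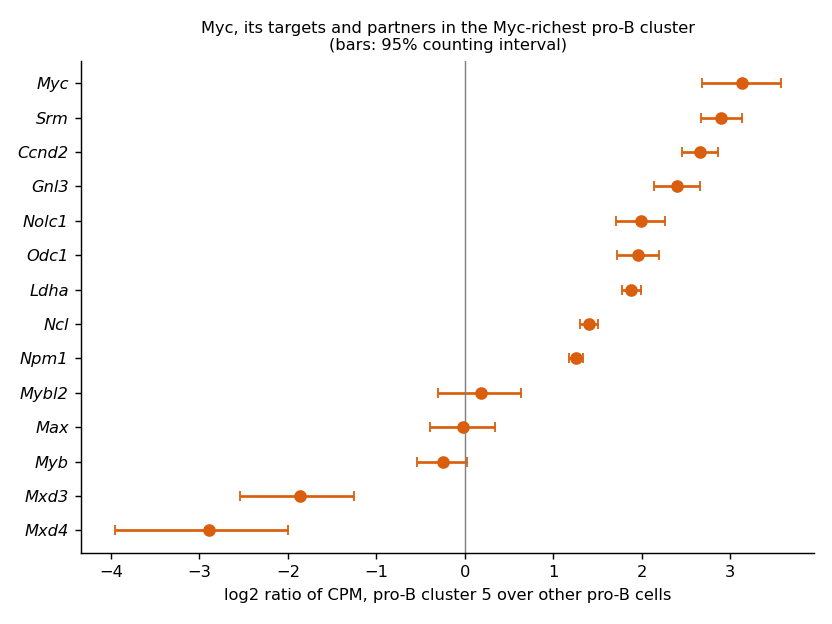
log2 ratio of CPM in pro-B cluster 5 (52 cells) over the other 1054 pro-B cells for Myc, 8 of its known targets, 3 other members and 2 Mxd genes, with 95% counting intervals. Myc and its targets lie to the right of 0, Mxd3 and Mxd4 to the left, and the interval of Max spans 0.

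The same relation was looked at without clusters, by parting the thinned pro-B cells by whether they had a Myc UMI, so cells of cluster 5 still took part. The summed level of the ribosome biogenesis targets was 4542 CPM in the 37 cells with a Myc UMI and 2984 CPM in the 1033 without, a log2 ratio of 0.61 (0.53 to 0.68). The metabolism and growth targets summed to 9173 and 5917 CPM (0.63, 0.58 to 0.68). In CLP the same ratios were 0.14 (0.09 to 0.18) and 0.12 (0.08 to 0.16) between 210 cells with and 698 without, and in LMPP 0.12 (0.05 to 0.19) and 0.08 (0.03 to 0.14) between 94 and 479 cells. The G2/M list went the other way in all 3 libraries, with ratios of −0.51 (−0.59 to −0.43) in pro-B, −0.93 (−1.11 to −0.75) in CLP and −1.30 (−1.65 to −0.96) in LMPP. In pro-B the cells with a Myc UMI held more UMIs before thinning, with a median of 10740 UMIs against 5765, and 16.2% of them were cycle-low against 32.5%, and the part of these differences in the result was not tested.

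Few ribosome biogenesis targets of Myc differed by 2-fold between the whole pro-B and CLP libraries, whereas among cycle-low cells 7 of 19 were lower in pro-B. In pro-B over CLP, 1 of 19 ribosome biogenesis targets tested was at least 2-fold higher (Bop1, at 32.2 against 15.9 CPM) and 0 lower, with a median log2 ratio of 0.00. The nucleolar proteins Ncl and Npm1 measured 591 and 1129 CPM in pro-B, against 439 and 1126 CPM in CLP. Of 23 metabolism and growth targets 6 were higher, among them the glycolytic enzymes Ldha and Eno1, and 2 lower, with a median of 0.56, where all genes had a median of 0.17 and 15.7% were higher and 11.6% lower. Bop1, Ldha and Eno1 were named after their values were seen, as were the 2 lower targets. These were Ccnd2, at 115 against 408 CPM, and Tfrc, the transferrin receptor, at 18.7 against 53.5 CPM. Among cycle-low cells 0 of 19 ribosome biogenesis targets were higher in pro-B and 7 lower, with a median of −0.74, and 1 of 21 metabolism targets was higher and 6 lower, with a median of −0.63. Over all genes in that class 18.2% were higher and 10.9% lower, with a median of 0.27. The ribosome biogenesis list summed to 1949 CPM in cycle-low pro-B cells against 2834 CPM in cycle-low CLP cells (log2 ratio −0.54, −0.61 to −0.47). These cycle-low cells had a median of 3060.5 UMIs in pro-B against 6144 in CLP. Ribosomal protein genes made up 29.6% of their UMIs in pro-B against 43.1% in CLP. The part of these 2 differences in the target levels was not tested. Among S-rich cells 1 of 20 and 6 of 24 were higher and 0 and 2 lower, against 11.6% and 13.1% of all genes. Among G2/M-rich cells 2 of 20 and 3 of 23 were higher and 0 and 2 lower, against 10.7% and 13.1%.

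Within pro-B, S-rich over cycle-low cells had 13 of 20 ribosome biogenesis targets and 17 of 23 metabolism targets at least 2-fold higher, where 9.43% of all genes were. G2/M-rich over cycle-low cells had 8 of 20 and 14 of 23, where 10.8% of all genes were, and 0 were lower in either. Ranbp1, a nuclear transport factor, measured 1021 CPM in S-rich and 860.3 CPM in G2/M-rich cells, against 224 CPM in cycle-low cells. In CLP over LMPP 0 of 19 and 1 of 22 were higher, and 0 lower, against 4.11% and 3.03% of all genes.

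Among the other proteins that compete for Max, Mxd3 and Mxd4 differed most between cycle classes. Of 6 genes, 4 were tested in pro-B over CLP, and 1 was higher and 0 lower, against 15.7% and 11.6% of all genes. Mxd3 measured 1.25, 5.19 and 91.8 CPM over LMPP, CLP and pro-B, and pro-B was 17.7-fold above CLP. In pro-B it measured 7.88 CPM in cycle-low, 30.8 in S-rich and 124 in G2/M-rich cells. Mxd4 measured 103, 157 and 83.8 CPM in the 3 libraries and ran against the cycle in pro-B, at 291, 74.2 and 36.7 CPM in the same 3 classes. It was among the leading genes of pro-B clusters 0 and 4, the clusters with most cycle-low cells, in which 80.3% and 66.2% of cells were cycle-low. Mga measured 40.1, 42.9 and 25.4 CPM in the 3 libraries and Mxi1 21.2, 26.0 and 22.0 CPM. Of the Mlx branch, a parallel network that senses sugars, Mlx measured 19.2, 19.6 and 30.1 CPM, Mlxip 13.0, 21.8 and 15.6 CPM, and Mlxipl had 0, 1 and 0 UMIs.

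Myc cofactors and turnover factors included 14 tested genes in pro-B over CLP, of which 4 were higher (Ruvbl1, Actl6a, Cip2a and, named after its value was seen, Skp2) and 0 lower, with a median log2 ratio of 0.59, against 15.7% and 11.6% of all genes. Within the cycle-low, S-rich and G2/M-rich classes 0 of 12, 1 of 11 and 4 of 13 were higher, against 18.2%, 11.6% and 10.7% of all genes. Actl6a, a chromatin remodelling subunit, measured 167 CPM in pro-B against 80.3 CPM in CLP. Cip2a, which shields the Myc protein from breakdown, measured 23.1 CPM in pro-B against 4.52 CPM in CLP, and within pro-B 31.3 CPM in G2/M-rich against 3.50 CPM in cycle-low cells.

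Of 8 tested genes of the MuvB, E2F and Foxm1 list, 4 stood higher by 2-fold or more in pro-B over CLP (Rbbp4, Foxm1, E2f2 and, named after its value was seen, Rbl1) and 0 lower, with a median log2 ratio of 0.82, against 15.7% and 11.6% of all genes. Within the cycle-low, S-rich and G2/M-rich classes 1 of 5, 3 of 8 and 2 of 10 were higher, against 18.2%, 11.6% and 10.7% of all genes. Foxm1, which acts with Mybl2 on genes of mitosis, measured 0.747, 5.87 and 24.7 CPM across LMPP, CLP and pro-B. E2f2 measured 3.24, 8.21 and 79.8 CPM, and Rbbp4, a MuvB subunit, 101, 115 and 305 CPM. In G2/M-rich over cycle-low pro-B cells 4 of 8 were higher and 0 lower, against 10.8% and 14.1% of all genes. Foxm1 measured 33.2 CPM in G2/M-rich against 2.63 CPM in cycle-low cells, with 3 UMIs in the cycle-low cells and a log2 ratio of 3.66 (2.09 to 5.95).

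Known targets of Myb differed in both directions. In pro-B over CLP 9 of 13 were tested, of which 3 were higher (Ebf1, Rag2 and Ccnb1, the last also in the G2/M list) and 5 lower, with a median log2 ratio of −1.92, against 15.7% and 11.6% of all genes. Bcl2, a survival gene, measured 95.9, 199.8 and 12.1 CPM across LMPP, CLP and pro-B. Lmo2, a cofactor of early progenitors, measured 737, 194 and 38.3 CPM. Cd34 and Mpo had 191 and 71.4 CPM in CLP and 0 UMIs in pro-B, so pro-B was at least 469-fold and at least 175-fold lower, taking 3 UMIs over the library as the floor. In CLP over LMPP 4 of 10 were higher and 4 lower, against 4.11% and 3.03%. Among the 4 higher was Il7r, at 141 against 3.74 CPM. It encodes IL7Ra, by which CLP and LMPP were sorted apart, so its call came with the sort. Gata2 was 30.0-fold lower, at 0.838 CPM from 5 UMIs in CLP against 25.2 CPM in LMPP. Ebf1 measured 7.97, 472 and 3567 CPM. Of 5 tested genes in a list of Myb relatives, coactivators and other regulators, 0 were higher and 1 lower in pro-B over CLP, against the same 15.7% and 11.6%. This was Cebpb, an activator of myeloid genes, with 1 UMI in pro-B and 27.1 CPM in CLP. The coactivator Crebbp measured 51.1, 54.5 and 47.9 CPM, and Mybbp1a and Hipk2 ranged from 17.0 to 48.6 CPM over the 3 libraries.

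For each member the genes with the most similar pattern were sought over 9 groups, the 3 cycle classes of each library, by Pearson's r of log2(CPM + 5) among 6642 genes with 20 CPM or more in at least 1 group. The 9 groups share 3 libraries and differ in depth, so r is a description. Mybl2 was most like Whsc1 (r = 0.99), Atad2 (0.98), Smc3 (0.98), Gmnn (0.97) and Srsf2 (0.97). Gmnn, the inhibitor of replication licensing, measured 42.0 CPM in cycle-low, 252 in S-rich and 242 in G2/M-rich pro-B cells. Myb was most like Mgea5, Ppp3cc, Rag1, Dntt and BC035044 (r from 0.96 to 0.97). Rag1 and Dntt, genes of antigen receptor assembly, measured 217 and 2154 CPM in cycle-low pro-B cells, against 2.82 and 426 CPM in cycle-low LMPP. Mycn was most like Fam69b, Fos, Ccl3, Nlgn2 and Basp1 (0.98 to 0.99), and Fos, an immediate early gene, measured 379.7, 212 and 22.8 CPM in the cycle-low cells of LMPP, CLP and pro-B. Myc was most like Fam60a, Zfp687, Zfhx3, Adamts10 and Morc3 (0.95 to 0.97). Mycl was most like Golm1, Il6st, Tmem119, Sema4d and Cmah (0.97 to 0.98), and Cmah measured 100.4 CPM in cycle-low CLP against 10.9 CPM in cycle-low LMPP. Max varied by an SD of 0.26 over the 9 groups, and its nearest genes were Dbp, Map7, Izumo4, Chd6 and Baz2b.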

How the data were processed

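Single cells of 3 sorted populations were captured with a droplet kit that reads transcript 3′ ends and tags each with a UMI, and Cell Ranger on mm10 is named in the submitters' processing notes, with no version. The authors deposited raw UMI counts per gene and cell barcode, 1 filtered matrix per population, and the labels' cultured cells were not analysed here. Cells with 500 or more genes and at most 10% mitochondrially encoded UMIs were kept, and their counts were summed per library, class or cluster and divided by the group's total (CPM). Levels and ratios of 2 Poisson counts have exact 95% intervals (Clopper-Pearson for ratios and shares). PCR copies were collapsed by UMI, so intervals cover counting error only. There is 1 library per population, so no p-value was computed, and cells were not treated as replicates. Shares and cycle classes used cells thinned to 2000 UMIs, which left out shallower cells and kept 573 LMPP, 908 CLP and 1070 pro-B cells.

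Each library was clustered alone (scanpy 1.11.5, leidenalg 0.10.2; 2000 variable genes without the members, 20 components, 15 neighbours, resolution 0.5), and clusters were named only from marker lists. Scrublet called 30, 14 and 2 doublets in LMPP, CLP and pro-B. They were kept, and leaving them out was an alternative. In pro-B this is a very small share of cells, so the caller may not have worked there. Ratios and counts were computed with Python 3.11.15, NumPy 2.4.6, SciPy 1.17.1 and pandas 2.3.3. Only the 2-fold call and the ratio interval were tried on simulated Poisson counts, which match what the interval assumes. Thinning, cycle classes, clustering and spread between cells were not simulated.

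The members, gene lists and marker lists were chosen with earlier results of these data known. Named genes were the 6 members, the 4 genes of each list with the highest CPM, list genes with 4-fold or larger differences between neighbouring populations, and the 5 genes most like each member. Others are said to have been named after their values were seen. Alternatives were another total, equal weight per cell, other floors, folds, thinning depths, class limits and cell filters, and comparison among cycle-low cells. Comparisons among S-rich cells, among G2/M-rich cells and without pro-B cluster 5, and counts of list genes within each cycle class, were added after seeing the data.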

Additional observations from a re-analysis of the deposited data

Results flagged for a closer look

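Myc differed in direction between libraries when S-rich cells were set against cycle-low cells. Its log2 ratio was 1.21 in pro-B (0.39 to 2.08), at 38.5 CPM in S-rich and 16.6 CPM in cycle-low cells. In CLP it was −0.30 (−0.55 to −0.06), at 121 CPM in S-rich and 149 CPM in cycle-low cells. Each library is 1 sample, so the difference between these ratios was not tested. The pro-B ratio rested on 40 UMIs in S-rich and 19 UMIs in cycle-low cells, and 5 cells held 78.9% of the cycle-low UMIs. It was −0.15 with cells thinned to 3000 UMIs. Cells of pro-B cluster 5, which held 90 of the 174 Myc UMIs in pro-B, took part in these classes. Of the cells of that cluster 17.3% were S-rich and 5.77% cycle-low.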

How the results depend on the processing

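Of 128 recomputed counts of members past 2-fold, 111 stayed within 1.5 times the reported count and 17 did not, and 304 of 356 log2 ratios of a member stayed inside their counting interval. Of 512 counts of list genes 84 moved past 1.5 times, and of 36 shares of cells with a UMI 27 left their interval when the thinning depth changed or no thinning was done. In CLP over LMPP the 1 higher member became 2 with equal weight per cell, and 0 with a floor of 50 CPM or after leaving out the clusters of other lineages. The 1 lower member became 0 at 4-fold, among S-rich cells and among G2/M-rich cells. In pro-B over CLP the 1 higher member became 0 among cycle-low, S-rich and G2/M-rich cells, and the 3 lower members became 1 with a floor of 50 CPM. In pro-B over LMPP the 1 higher member became 2 with equal weight per cell, and the 2 lower became 1 among G2/M-rich cells. Among cycle-low cells the count of 1 higher member stayed in CLP over LMPP and in pro-B over LMPP, but the member changed. It was Myb, at 2.14-fold and 2.50-fold, while Mycl (19.1 CPM in CLP) and Mybl2 (7.01 CPM in pro-B) were under 20 CPM. Myb stayed under 2-fold among S-rich and among G2/M-rich cells. In S-rich over cycle-low pro-B cells the 2 higher members became 1 with a floor of 50 CPM, at 4-fold, with class limits of 2 or 5 UMIs, and with thinning to 3000 UMIs. There Myc reversed, to a log2 ratio of −0.15. The cause was not tested. Ribosomal protein genes made up 43.5%, 41.9% and 29.6% of the UMIs of LMPP, CLP and pro-B. With them and mitochondrially encoded genes out of the total, pro-B over CLP was −0.66 for Max and −0.42 for Myb. Both values lay outside their counting intervals. Leaving these genes out of the total moved the median log2 ratio of all genes by −0.31 in pro-B over CLP and −0.34 in pro-B over LMPP. Median-of-ratios scaling moved it by 0.14 in S-rich and 0.24 in G2/M-rich over cycle-low cells. No paired analysis was possible because each population has 1 library, and no library could be left out. At this depth the small counts of Mycn and Mycl in pro-B limit any statement there.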

Other observations

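Cells with UMIs of both of 2 Myc genes were rare. Among thinned cells, 12 LMPP, 19 CLP and 0 pro-B cells had UMIs of 2 of Myc, Mycn and Mycl. In LMPP all 12 carried Myc with Mycn. In CLP, 9 carried Myc with Mycn, 9 Myc with Mycl and 1 Mycn with Mycl.

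Pro-B cells with a Mybl2 UMI also carried more of the S phase list than those without, at 3897 and 2524 CPM summed over the list, a log2 ratio of 0.63 (0.57 to 0.68). Their median was 8699 UMIs against 5601, and the part of this depth gap in the result was not tested.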
